A study of Mus musculus with 6 samples.

Results

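The genes described here are the 7 histone deacetylases of class II and class IV in the mouse: Hdac4, Hdac5, Hdac7 and Hdac9 of class IIa, Hdac6 and Hdac10 of class IIb, and Hdac11 of class IV. They were chosen by family membership, by matching the Ensembl identifiers of the table to these gene symbols, and make up 7 of the 54532 genes of the table. Their RNA was measured by bulk RNA-seq of whole dorsal root ganglia, which hold the cell bodies of the sensory neurons that serve skin, muscle and viscera, from C57BL/6 mice aged 8 weeks. The Hdac2 conditional knockout group (Hdac2 cKO, 3 libraries) carried floxed Hdac2 (hdac2-flop++) together with Adv-Cre, a Cre recombinase that the Advillin promoter drives mainly in primary sensory neurons. Littermates with the same floxed Hdac2 alleles and no Cre (called WT, 3 libraries) were the controls. The groups thus differed by Cre as well as by the loss of Hdac2, no group carried Cre alone, and ganglia also hold glia, vessels and other cells without Cre. The sources used here do not give whether a library came from 1 mouse or from pooled mice, so every p-value measures the spread between these libraries, which may be technical.

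Histone deacetylases remove acetyl groups from lysines of histones and other proteins. HDAC2, the enzyme deleted here, belongs to class I, whose members are nuclear and catalytically active. Class IIa enzymes have weak deacetylase activity of their own. They bind MEF2 transcription factors and the NCoR and SMRT corepressors that carry HDAC3, and they leave the nucleus bound to 14-3-3 proteins when kinases such as CaMK, protein kinase D and the salt-inducible kinases phosphorylate them. In injured sensory axons, calcium entry drives HDAC5 out of the nucleus. HDAC6 is the main tubulin deacetylase of the cytoplasm and governs transport along axons, HDAC10 deacetylates polyamines, and HDAC11 removes long fatty acyl groups from lysines.

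Promoter sequences in RefSeq (build GRCm38.p6, the 250 bases before a transcription start, in the direction of the gene) were found for 6 of the 7 genes, in 10 windows. Hdac10 was not matched. The windows of Hdac4, Hdac5 and Hdac11 are shown, because these are the genes whose log2 fold changes lay furthest from 0. Capitals mark matches to 3 motifs searched on both strands: the GC box (GGGCGG), the CCAAT box (CCAAT) and the MEF2 site, the motif bound by the factors that class IIa enzymes repress. No match overlapped another.
Hdac4, chr1:92180342-92180591, minus strand: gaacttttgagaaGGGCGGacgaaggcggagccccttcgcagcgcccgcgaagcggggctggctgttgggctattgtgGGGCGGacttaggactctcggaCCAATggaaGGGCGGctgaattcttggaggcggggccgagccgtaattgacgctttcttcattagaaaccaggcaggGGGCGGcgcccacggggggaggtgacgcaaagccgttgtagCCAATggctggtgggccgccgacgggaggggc
Hdac5, chr11:102230173-102230422, minus strand: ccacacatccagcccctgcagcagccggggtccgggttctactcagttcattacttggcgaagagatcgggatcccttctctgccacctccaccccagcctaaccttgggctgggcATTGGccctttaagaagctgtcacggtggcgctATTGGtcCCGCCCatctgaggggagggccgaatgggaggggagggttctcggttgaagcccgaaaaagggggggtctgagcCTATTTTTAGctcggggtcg
Hdac11, chr6:91156565-91156814, plus strand: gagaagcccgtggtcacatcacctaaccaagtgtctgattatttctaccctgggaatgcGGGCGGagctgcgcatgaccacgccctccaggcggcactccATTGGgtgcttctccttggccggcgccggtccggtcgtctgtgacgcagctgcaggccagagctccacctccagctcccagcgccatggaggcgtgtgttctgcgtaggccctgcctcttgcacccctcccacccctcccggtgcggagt
The window of Hdac4 held 4 GC boxes and 2 CCAAT boxes, and the start site it precedes lies 15358 bases inside the start of the gene as GENCODE draws it, so it belongs to an internal start. The window of Hdac5 held 1 GC box, 2 CCAAT boxes and 1 match to the MEF2 site, 20 to 11 bases before the start. The window of Hdac11 held 1 GC box and 1 CCAAT box, and the start site it precedes lies 150 bases inside the start of the gene in GENCODE. The CCAAT box, 150 to 146 bases before that site, thus begins at the GENCODE start. Over all 32851 promoter windows of the same length, 32.74% held a GC box, 33.85% a CCAAT box and 2.919% a MEF2 site. The E box (CACGTG) was also searched, lay in 6.021% of all windows and had no match in the 10 windows of these genes. A match is a run of letters and not a measured binding site.

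Values below are normalised read counts, that is, the reads of a gene divided by the size factor of its library. A log2 fold change is the mean of log2 (value + 1) over Hdac2 cKO libraries minus that over WT libraries. The test across genes was limma, a linear model fitted to the 18410 genes at 10 or more normalised read counts in at least 3 libraries, with p-values adjusted by Benjamini-Hochberg over all of them and a threshold of 0.05. Hdac2 itself stood at 499, 372 and 535 normalised read counts in Hdac2 cKO 1, 2 and 3, against 2816, 1715 and 3498 in WT 1, 2 and 3. Its log2 fold change was -2.47 (SE 0.31), which DESeq2 called (adjusted p = 6.16e-09) and limma did not (adjusted p = 0.927). Avil, whose promoter drives Cre, stood at 10125, 9369 and 8201 in Hdac2 cKO 1, 2 and 3, against 15684, 17149 and 11996 in WT 1, 2 and 3.

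Reads assigned to genes ranged from 18943595 to 42070531 per library, and each of the 7 genes had between 321 and 4376 reads in every library. WT 3 stood apart from the others: its log2 values correlated with those of the other 5 libraries by 0.833 to 0.887, while the best match of each other library reached 0.942 to 0.977. In WT 2, 42.4% of genes with few reads had an even count, against 60.2 to 64.4% in the other 5 libraries. Sensory neuron markers were present in all libraries, with summed levels of 545564 to 726265 in Hdac2 cKO and 527296 to 770243 in WT. All 9 myelinating Schwann cell markers were lower in Hdac2 cKO by their log2 fold change, with a median of -0.82 and summed levels of 130439 to 218691 in Hdac2 cKO against 235964 to 353885 in WT. All 11 skeletal muscle markers were lower too, at a median log2 difference of -3.88, with summed levels of 129 to 1349 in Hdac2 cKO against 2753 to 10681 in WT. Of the fibroblast markers 5 of 6 were lower, with a median of -0.49. Col1a1 (-1.31) and Col1a2 (-0.82) were lower in every Hdac2 cKO library than in any WT library, as were 3.91% of all genes tested. The groups overlapped for Col3a1 (-0.94), Pdgfra (-0.16), Lum (-0.08) and Dcn (0.37). The sums just overlapped, at 16548 to 30938 in Hdac2 cKO and 30895 to 34985 in WT. Of the endothelial markers 7 of 10 were lower, with a median of -0.13 and sums of 6429 to 7658 in Hdac2 cKO and 7003 to 10382 in WT. Markers of blood cells differed most within groups. Erythroid markers summed to 51225, 77527 and 1340 in Hdac2 cKO 1, 2 and 3, against 53291, 7113 and 2758 in WT 1, 2 and 3, and lymphocyte and granulocyte markers to 8591, 13715 and 202 in Hdac2 cKO 1, 2 and 3, against 15140 (WT 1), 832 (WT 2) and 214 (WT 3). Hdac2 cKO 3, WT 2 and WT 3 were thus the low libraries for both. Satellite glia markers summed to 27358 to 30814 in Hdac2 cKO and 29694 to 33729 in WT, and macrophage markers to 2104 to 5602 in Hdac2 cKO and 2308 to 4847 in WT. No marker on these lists passed limma or was at 0 in all 6 libraries. DESeq2, which called 0.145% of all genes, called the Schwann cell marker Mag (adjusted p = 0.0085). It also called the muscle markers Tcap (adjusted p = 0.0067) and Myh7 (adjusted p = 0.0028), and no other marker on these lists. The part of these cells in the values below was not tested, and in bulk RNA fewer cells of a type and less RNA per cell cannot be told apart.

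None of the 7 genes passed the test. Of all 18410 genes, 0 (0%) passed limma, 0 (0%) passed edgeR and 26 of 17912 (0.145%) passed DESeq2, while 341 (1.85%) had an unadjusted limma p under 0.05. Hdac4 was the 1 of the 7 genes that reached that unadjusted level. Hdac4 was higher in every Hdac2 cKO library than in any WT library, and Hdac5 was lower in every one. Such separation held for 8.54% of all genes, 4.63% higher and 3.91% lower. By their log2 fold change 3 of the 7 genes were higher and 4 lower, with a median of -0.03, beside a median of 0.06 over all genes tested.

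**Figure D1:**
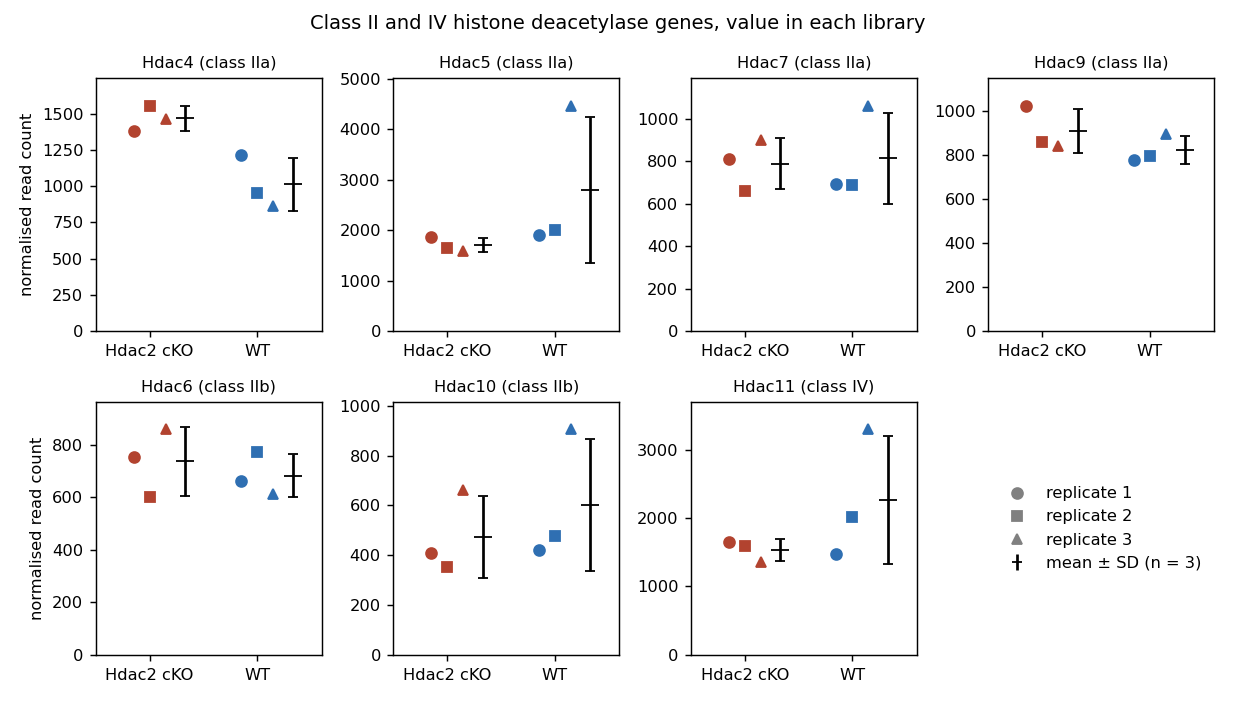
Normalised read counts of the 7 genes (vertical axis, from 0) in each library, Hdac2 cKO in red and WT in blue, with the marker shape giving the replicate number and the black bars the mean and SD of 3 libraries. The groups are apart for Hdac4 and Hdac5 and overlap for the other 5 genes, and WT 3 is the highest library for Hdac5, Hdac7, Hdac10 and Hdac11.

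Hdac4 (ENSMUSG00000026313, GRCm38 chr1:91928779-92195699, minus strand) encodes a class IIa corepressor of MEF2 that is abundant in neurons and muscle. It measured 1383, 1557 and 1462 normalised read counts in Hdac2 cKO 1, 2 and 3, against 1218, 956 and 867 in WT 1, 2 and 3. The lowest knockout library lay above the highest WT library, and WT varied more than Hdac2 cKO. Means were 1467 ± 86.9 in Hdac2 cKO and 1013 ± 182 in WT (SD, n = 3 each). The log2 fold change was 0.55 (SE 0.21, 95% confidence interval 0.05 to 1.04), a ratio of 1.46, with limma adjusted p = 0.927. The exact two-sided permutation test over libraries gave p = 0.1, the smallest that 3 against 3 allows. Limma with array weights, which lets each library count by how closely it follows the fit for its group, called Hdac4 at 0.59 (adjusted p = 0.0414). It called 3.08% of all genes. The weights were 0.67 for WT 1, 4.17 for WT 2 and 0.101 for WT 3. The WT side of that call thus rests mostly on WT 2, the library with the fewest reads. Over the 23 alternative settings the adjusted p of Hdac4 ran from 0.0414 to 1.00. With correction for gene length the log2 fold change was 0.33, and without WT 3 it was 0.44. Annotated exons of Gm26720 on the other strand cover 22.4% of the exonic length of Hdac4, and Gm26720 was given 0 reads in all libraries.

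Hdac5 (ENSMUSG00000008855, GRCm38 chr11:102194432-102230166, minus strand) encodes the class IIa enzyme known for its export from the nuclei of injured sensory neurons. It measured 1862, 1654 and 1593 normalised read counts in Hdac2 cKO 1, 2 and 3, against 1906, 2010.1 and 4473 in WT 1, 2 and 3. WT 3 was at 2.28 times the mean of the other WT libraries, and the lowest WT library was close to the highest knockout library. The means were 1703 ± 141 in Hdac2 cKO and 2796 ± 1453 in WT (SD, n = 3 each). The log2 fold change was -0.60 (SE 0.34, 95% confidence interval -1.41 to 0.21), a ratio of 0.659, with limma adjusted p = 0.927 and p = 0.1 by the exact permutation test. Without WT 3 it was -0.20, with array weights -0.23 and with correction for GC content -0.36. The longest annotated transcript of Hdac5 has 59.8% GC, and the 1431 tested genes within 2 percentage points of that had a median log2 fold change of -0.19.

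The remaining class IIa genes had overlapping groups. Hdac7 (ENSMUSG00000022475, GRCm38 chr15:97792664-97844502, minus strand), known for its part in endothelial cells and developing T cells, measured 808, 660.5 and 898 normalised read counts in Hdac2 cKO 1, 2 and 3, against 694, 688 and 1062 in WT 1, 2 and 3. The libraries of both groups interleaved, and the libraries numbered 3 were the highest of each group. Its log2 fold change was -0.03 (SE 0.26, 95% confidence interval -0.63 to 0.58), with limma adjusted p = 0.986. Its sign turned under several settings, to 0.18 without WT 3 and to 0.23 with GC correction. The longest annotated transcript of Hdac7 has 60.2% GC, and the 1262 tested genes within 2 percentage points of that had a median of -0.21. Hdac9 (ENSMUSG00000004698, GRCm38 chr12:34047580-34917095, minus strand) encodes a MEF2-binding enzyme that responds to denervation in muscle. Hdac9 stood at 1023, 859 and 842 normalised read counts in Hdac2 cKO 1, 2 and 3, against 777, 794 and 896 in WT 1, 2 and 3. For Hdac9 limma gave a log2 fold change of 0.14 (SE 0.20, 95% confidence interval -0.33 to 0.61) with adjusted p = 0.928, and it was -0.07 with length correction. Hdac9 had the narrowest interval of the 7 genes, which reaches from a ratio of 0.795 to one of 1.53.

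Of the class IIb genes, Hdac6 (ENSMUSG00000031161, GRCm38 chrX:7930120-7947889, minus strand) measured 754, 601 and 860.3 normalised read counts in Hdac2 cKO 1, 2 and 3, against 662, 774 and 614 in WT 1, 2 and 3. The highest and the lowest of the 6 libraries were both knockout libraries. The means were 738 ± 131 in Hdac2 cKO and 683 ± 82.2 in WT (SD, n = 3 each) and limma gave a log2 fold change of 0.10 (SE 0.23, 95% confidence interval -0.44 to 0.64) with adjusted p = 0.946. It was -0.02 without Hdac2 cKO 3, -0.17 with array weights and -0.09 when both libraries numbered 3 were left out. Hdac10 (ENSMUSG00000062906, GRCm38 chr15:89123307-89128700, minus strand) measured 409, 352 and 661 normalised read counts in Hdac2 cKO 1, 2 and 3, against 420.0, 478 and 906 in WT 1, 2 and 3. In each group the library numbered 3 was the highest, and each Hdac2 cKO library was below the WT library of the same number. Limma gave Hdac10 a log2 fold change of -0.31 (SE 0.38, 95% confidence interval -1.20 to 0.58) with adjusted p = 0.927. With the replicate number as a block the SE was 0.23 and limma's adjusted p 0.693. The log2 fold change became 0.03 without WT 3 and -0.58 without Hdac2 cKO 3.

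Hdac11 (ENSMUSG00000034245, GRCm38 chr6:91156665-91174692, plus strand), the only class IV gene, is best known from brain and oligodendrocytes. It measured 1646, 1593 and 1355 normalised read counts in Hdac2 cKO 1, 2 and 3, against 1476, 2021 and 3297 in WT 1, 2 and 3. WT 2 and WT 3 lay above all knockout libraries, and WT 1 lay among them. The means were 1531 ± 155 in Hdac2 cKO and 2265 ± 935 in WT (SD, n = 3 each). The log2 fold change was -0.49 (SE 0.31, 95% confidence interval -1.22 to 0.24), a ratio of 0.712, with limma adjusted p = 0.927 and p = 0.3 by the exact permutation test. It was -0.18 without WT 3, -0.29 with array weights, -0.09 when both libraries numbered 3 were left out and -0.76 without WT 1. Of 7 markers of oligodendrocytes and astrocytes 3 could be tested (Mobp, Hapln2 and Aqp4), all with overlapping groups, while Mog, Opalin, Olig1 and Olig2 were below the filter. Mobp, of oligodendrocytes, was at 20.2, 1.97 and 122 in Hdac2 cKO 1, 2 and 3, against 22.1, 11.9 and 65.4 in WT 1, 2 and 3. The list summed to 340.1 to 423 in Hdac2 cKO and 220.4 to 392 in WT. Most of that sum in every library was Aqp4, an astrocyte marker. Aqp4 was at 392, 322 and 245 in Hdac2 cKO 1, 2 and 3, against 347, 189 and 155 in WT 1, 2 and 3. The part of these markers in the values of Hdac11 was not tested. Gm44002 and Gm14573 share 15.4% and 2.49% of the exonic length of Hdac11 on the other strand and had at most 2 reads in any library.

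**Figure D2:**
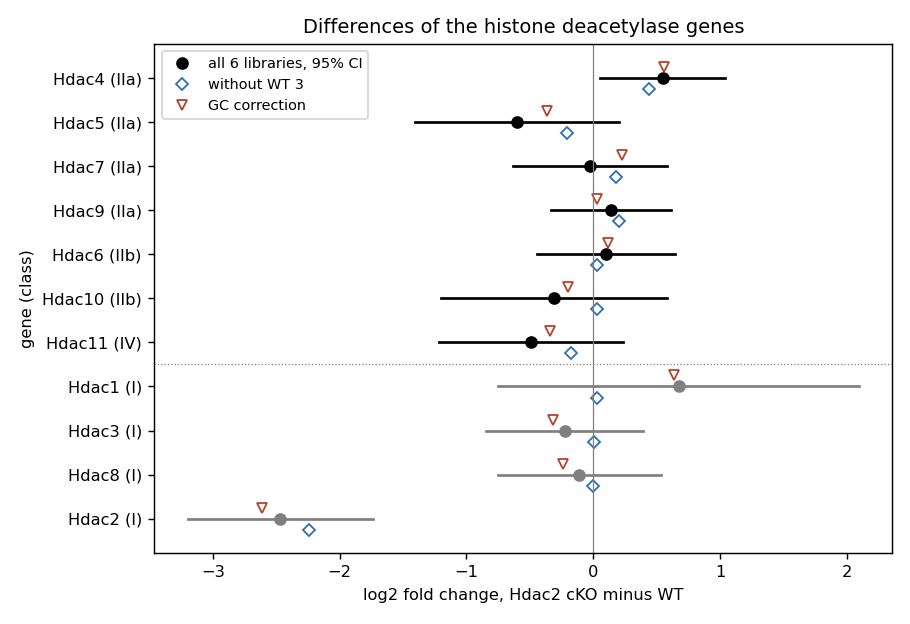
Log2 fold changes (horizontal axis, Hdac2 cKO minus WT) of the 7 genes in black and of the 4 class I genes in grey, with 95% confidence intervals from limma on all 6 libraries; diamonds leave out WT 3 and triangles correct for GC content. Without WT 3, Hdac5 moves to -0.20, Hdac11 to -0.18 and Hdac10 to 0.03, while Hdac4 stays at 0.44.

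Levels of different genes were compared as normalised read counts per kilobase of exon. The length was that of all annotated exons of a gene merged, which can exceed that of the transcripts expressed, and the order depends on it. Hdac4 (15813 bases) and Hdac9 (14665 bases) had the longest merged exons of the 7 genes. By the median over 6 libraries Hdac11 was first at 421, followed by Hdac5 at 215, Hdac10 at 133, Hdac6 at 122, Hdac7 at 111, Hdac4 at 82.2 and Hdac9 at 58.0. Hdac11 lay above 81.1% of all tested genes on this scale and Hdac9 above 39.7%. Hdac11 exceeded Hdac5 in 6 of 6 libraries, and each other neighbour in the order was above the next in 5 of 6. The ranges of all neighbours overlapped. Within Hdac2 cKO, Hdac11 averaged 398 ± 40.3 per kilobase, Hdac5 194 ± 16.1, Hdac10 140 ± 48.7, Hdac6 127 ± 22.4, Hdac7 117 ± 17.8, Hdac4 92.8 ± 5.50 and Hdac9 61.9 ± 6.83 (SD, n = 3). In WT the averages were 588 ± 243 for Hdac11, 318 ± 165 for Hdac5, 178 ± 78.5 for Hdac10, 117 ± 14.1 for Hdac6, 121 ± 31.7 for Hdac7, 64.1 ± 11.5 for Hdac4 and 56.1 ± 4.40 for Hdac9 (SD, n = 3).

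**Figure D3:**
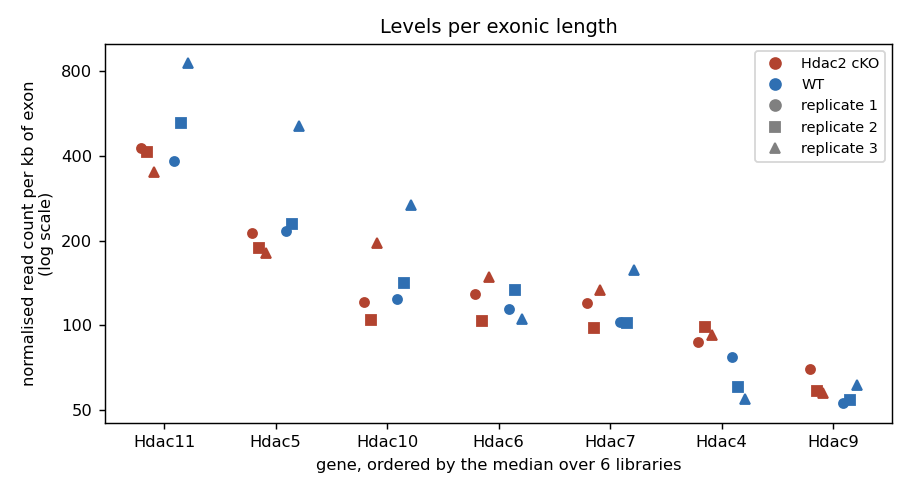
Normalised read counts per kilobase of exon (vertical log axis) of the 7 genes in each library, ordered by the median over 6 libraries, with Hdac2 cKO in red to the left of WT in blue. Hdac11 is at the top with a median of 421 and Hdac9 at the bottom with 58.0, and the points of neighbouring genes overlap.

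Summed over the 7 genes, the level was 1167, 1064 and 1160 per kilobase in Hdac2 cKO 1, 2 and 3, against 1071, 1245 and 2013 in WT 1, 2 and 3. The sums overlapped, and the highest was WT 3. Class IIa genes summed to 465 ± 22.9 per kilobase in Hdac2 cKO and 559 ± 193 in WT, and class IIb genes to 267 ± 69.5 in Hdac2 cKO and 295 ± 70.1 in WT (SD, n = 3 each). Of the summed level of all 11 class I, II and IV genes, the 7 genes made up 55.3, 54.3 and 55.7% in Hdac2 cKO 1, 2 and 3, against 42.2, 52.4 and 54.3% in WT 1, 2 and 3. The groups met at Hdac2 cKO 2 and WT 3, and the exact permutation test gave p = 0.1. Hdac2 is part of that sum, at 5.29, 4.23 and 5.75% in Hdac2 cKO 1, 2 and 3, against 24.8, 16.1 and 21.1% in WT 1, 2 and 3. With Hdac2 left out of the sum, the share of the 7 genes was 58.4, 56.7 and 59.1% in Hdac2 cKO 1, 2 and 3, against 56.1, 62.5 and 68.7% in WT 1, 2 and 3, and the groups overlapped (exact permutation p = 0.4). Among class I genes, Hdac1 had a log2 difference of 0.67 (SE 0.61), Hdac3 of -0.23 (SE 0.26) and Hdac8 of -0.11 (SE 0.27), none past limma's threshold and all with overlapping groups. Without WT 3 Hdac1 was at 0.03.

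The genes differed from one another mainly in WT 3. That library was at 2.28 times the mean of the other WT libraries for Hdac5, 2.02 times for Hdac10, 1.89 times for Hdac11, 1.54 times for Hdac7 and 1.14 times for Hdac9, and at 0.856 of that mean for Hdac6 and 0.798 for Hdac4. Pearson correlations of log2 values were taken over all 6 libraries, which include both groups and differ in depth and composition. The pairs named are those with the highest and the lowest values, while others lay near 0, such as Hdac6 and Hdac9 (0.01). Hdac5 and Hdac11 correlated by 0.955, Hdac7 and Hdac10 by 0.91, Hdac4 and Hdac11 by -0.849 and Hdac4 and Hdac5 by -0.814. Over the 5 libraries without WT 3 these were 0.728 for Hdac5 and Hdac11, 0.761 for Hdac7 and Hdac10, -0.737 for Hdac4 and Hdac11 and -0.859 for Hdac4 and Hdac5. The ratio of Hdac4 to Hdac5, a quantity chosen after the values were seen, was 0.743, 0.941 and 0.918 in Hdac2 cKO 1, 2 and 3, against 0.639, 0.476 and 0.194 in WT 1, 2 and 3. Its log2 difference was 1.15, and 0.65 without WT 3.

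**Figure D4:**
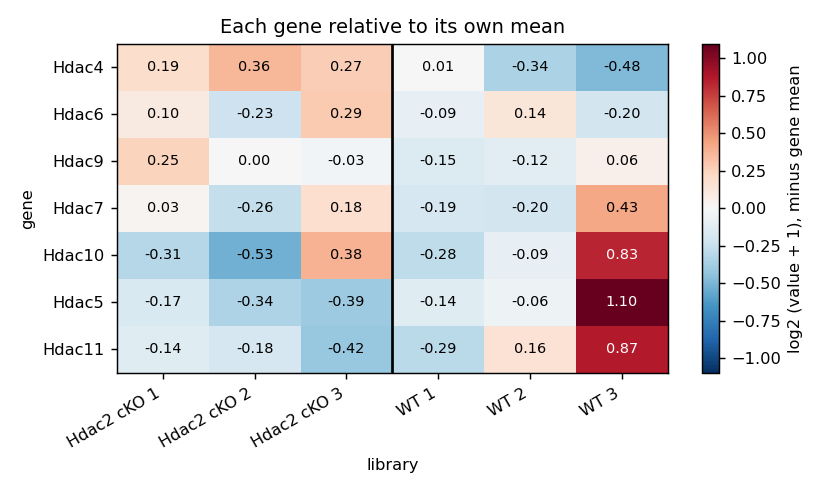
Log2 (value + 1) of each gene in each library minus the mean of that gene over 6 libraries (colour and printed number), with Hdac2 cKO libraries left of the black line and WT libraries right of it. Hdac5, Hdac10 and Hdac11 stand out in WT 3 at 1.10, 0.83 and 0.87, where Hdac4 is at -0.48.

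Among 15276 tested protein-coding genes, the one whose log2 values followed each of the 7 genes most closely over the 6 libraries was Dcun1d1 for Hdac4 (r = 0.993), Bag5 for Hdac5 (0.998), Kcnh3 for Hdac7 (0.997), Ccl24 for Hdac9 (0.951), Sema4b for Hdac6 (0.97), Adamts18 for Hdac10 (0.997) and Gdap1l1 for Hdac11 (0.999). With so few libraries high values are common: 8.80% of the compared genes exceeded 0.9 with Hdac10, 5.22% with Hdac5 and 0.0916% with Hdac9.

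The genes that class II and IV enzymes work with were read from 9 lists of 90 genes, of which 88 could be tested. None passed limma, DESeq2 or edgeR, beside 0% of all genes in limma; 46 were higher and 42 lower in Hdac2 cKO by their log2 fold change, with a median of 0.01. The groups did not overlap for 8 of them (9.09%, beside 8.54% of all genes tested): Mef2c, Runx2, Camk2a, Prdx1, Azin1 and Nmt2 were higher and Camk1 and Odc1 lower in every Hdac2 cKO library.

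The corepressor complex that class IIa enzymes recruit had 5 of 6 genes higher, with a median log2 fold change of 0.20. Ncor1, the scaffold of that complex, stood at 4781, 4569 and 6359 normalised read counts in Hdac2 cKO 1, 2 and 3, against 4236, 2997 and 4619 in WT 1, 2 and 3, with a log2 fold change of 0.41 (SE 0.25). The groups overlapped. Limma with array weights called Ncor1 at 0.58 (adjusted p = 0.0493), and called 3.08% of all genes. That setting gave its highest weight, 4.17, to WT 2, the lowest library for Ncor1. Tbl1x, a subunit of the same complex, had a log2 difference of 0.65 (SE 0.49), and 0.05 without WT 3, its lowest library. Without WT 2 Ncor1 was at 0.23.

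Transcription factors bound by class IIa enzymes were 4 higher and 4 lower, with a median of 0.03. Mef2c stood at 1071, 1112 and 1083 normalised read counts in Hdac2 cKO 1, 2 and 3, against 1061, 829 and 335 in WT 1, 2 and 3. The groups were apart by the narrow gap between Hdac2 cKO 1 and WT 1, and WT 3 was far below the rest. Its log2 fold change was 0.71 (SE 0.42), and 0.21 without WT 3. Mef2d, another MEF2 gene on the list, had a log2 difference of -0.37 (SE 0.25), and of -0.15 without WT 3. The list of genes that MEF2 and class IIa enzymes are known to regulate had 8 higher and 6 lower of 14 tested, with a median of 0.06. Chrna1, the acetylcholine receptor subunit of muscle, had a log2 difference of -0.91 (SE 0.56) in the same direction as the muscle markers above, and Nr4a2, a nuclear receptor induced by activity, had one of -0.37 (SE 0.31). Without WT 3 these were -0.47 for Chrna1 and -0.17 for Nr4a2.

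Kinases that send class IIa enzymes out of the nucleus were 10 higher and 7 lower, with a median of 0.04. Camk2a encodes a subunit of a CaMK that binds and phosphorylates HDAC4, and other subunits of that kinase are on the list. Camk2a stood at 5956, 5876 and 5043 normalised read counts in Hdac2 cKO 1, 2 and 3, against 4854, 4879 and 2278 in WT 1, 2 and 3. The groups did not overlap, and WT 3 was the lowest library. For Camk2a limma gave a log2 fold change of 0.57 (SE 0.32) with adjusted p = 0.927, and without WT 3 it was 0.20. Stk11, which activates the salt-inducible kinases, had a log2 difference of -0.36 (SE 0.21). Of the 14-3-3 proteins that hold phosphorylated class IIa enzymes in the cytoplasm, 3 were higher and 4 lower, with a median of -0.01; Ywhae had a log2 difference of -0.30 (SE 0.32) and Ywhaq of 0.35 (SE 0.40), and both turned sign without WT 3. Among 6 genes of nuclear transport and phosphatases 4 were higher, with a median of 0.08, and Xpo1, the exportin, had a log2 difference of 0.38 (SE 0.20).

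HDAC6 substrates and partners were 7 higher and 8 lower, with a median of -0.04. Prdx1 and Prdx2, the peroxiredoxins that HDAC6 deacetylates, had opposite signs: Prdx1 had a log2 difference of 0.29 (SE 0.20) with groups apart, and Prdx2 of -0.57 (SE 0.32) with groups overlapping. Without WT 3 they were 0.16 for Prdx1 and -0.46 for Prdx2. The polyamine pathway, in which HDAC10 acts, had 3 genes higher and 8 lower, with a median of -0.09. Odc1, the rate-limiting enzyme of polyamine synthesis, stood at 2356, 2998 and 2882 normalised read counts in Hdac2 cKO 1, 2 and 3, against 3067, 3125 and 6091 in WT 1, 2 and 3. All knockout libraries were below all WT libraries, and WT 3 was the highest. Its log2 fold change was -0.51 (SE 0.30), and that of Oaz1, the antizyme that directs ODC1 to degradation, was -0.42 (SE 0.26); limma's adjusted p was 0.927 for both. Without WT 3 they were -0.18 for Odc1 and -0.19 for Oaz1. The list of the HDAC11 substrate and the acylation enzymes had 2 of 4 tested genes higher, and Nmt2, an enzyme that adds myristoyl groups, had a log2 difference of 0.30 (SE 0.20), and of 0.19 without WT 3.

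**Figure D5:**
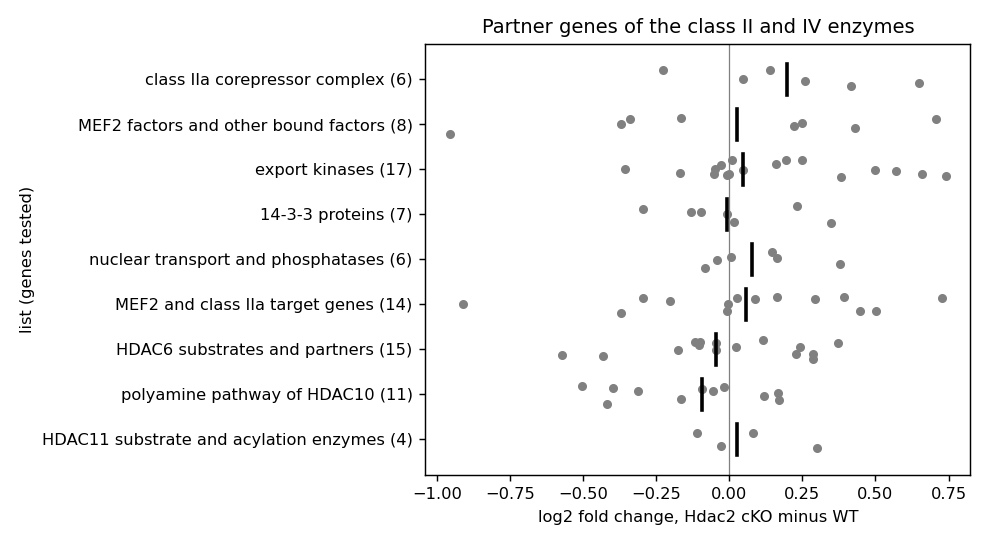
Log2 fold changes (horizontal axis, Hdac2 cKO minus WT) of the 88 tested partner genes, 1 grey point per gene, by list, with the number of genes tested in brackets and the list median as a black bar. The medians lie between -0.09 for the polyamine pathway and 0.20 for the corepressor complex, and no gene passed limma's test.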

How the data were processed

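RNA of 6 libraries was extracted with Trizol, per the labels' protocols. The submitters' processing notes name the build mm10 and the tools HISAT2, SAMtools, featureCounts and DESeq2. The sources used here do not give their versions, the annotation, the strand setting or the counting options, so reads of genes that overlap on either strand cannot be told apart. The values the authors deposited are a signal: the reads of each gene over 1 size factor for each library. Every column divided by its own step came out as whole reads in 100% of values (tolerance 0.01). Of 54532 genes 17327 were at 0 in all libraries, and all 37 mitochondrial genes were at 0. GENCODE M21 (GRCm38) gave symbols, coordinates, exonic length and GC content for 54495 identifiers, and promoter sequences are from RefSeq.

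Sample titles gave the groups and replicate numbers. Limma 3.58.1 in R 4.3.3, with an intensity trend and robust variances, was fitted to log2 (value + 1) for genes that reached 10 in 3 or more libraries; p-values are two-sided. The added 1 makes fold changes of low genes too small. DESeq2 1.42.0 and edgeR 4.0.16 on the recovered reads, other scalings, filters and pseudocounts, GC and length corrections, array weights, a sex term, the replicate block and leaving out libraries were alternatives. The sex term was set from the reads of the Y-linked genes Ddx3y, Uty, Kdm5d and Eif2s3y in each library. The fits were tested on simulated counts with the same dispersion for every gene and no library set apart from the rest. Those simulations do not show how the fits behave with a library such as WT 3. Every pair of libraries differed by a chi-square of at least 17.3 per gene, so none was counted as a duplicate.

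The 7 genes, the gene lists and the alternatives were chosen with earlier results of these data known, so no list is independent evidence. Genes named were the 7 genes, class I, Avil, up to 3 per partner list with the smallest p, and the gene most alike each of the 7; genes whose groups did not overlap and the cell type markers given by name were chosen after their values were seen. Deviations from group means of same-numbered libraries correlated by 0.40, 0.15 and 0.42 for numbers 1, 2 and 3. As each was over 0.1, the same numbers were taken as pairs in the settings with the replicate block. This rests on the data, since the labels name no pairs. The main limma fit and the permutation tests used no pairs. Hdac2 cKO 2 correlated more with WT 1 (0.34) than with WT 2 (0.15), so the pairing is uncertain.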

Additional observations from a re-analysis of the deposited data

How the results depend on the processing

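Of 161 values of the 7 genes under 23 alternatives, 149 kept their direction and 12 turned. Hdac4, Hdac5 and Hdac11 kept theirs under all 23. Limma settings with another filter or with the replicate block cannot change the log2 fold change of a gene. They repeat the value of the same setting without them, so the 149 values are not separate checks. Log2 fold changes (Hdac2 cKO minus WT) that turned were, for Hdac7, 0.23 with GC correction with and without the block, 0.063 with array weights and 0.080 without both libraries numbered 3; for Hdac9, -0.067 with length correction with and without the block; for Hdac6, -0.17 with array weights and -0.089 without both libraries numbered 3; and for Ppp2r2a, -0.069 with array weights and -0.11 without both libraries numbered 3. Leaving out 1 library at a time gave -0.13 to 0.18 for Hdac7, -0.016 to 0.24 for Hdac6, -0.58 to 0.027 for Hdac10, 0.44 to 0.69 for Hdac4, -0.82 to -0.20 for Hdac5, -0.76 to -0.18 for Hdac11, 0.05 to 0.20 for Hdac9, -0.37 to 0.0061 for Hdac3, -0.53 to 0.0043 for Ywhae, -0.12 to 0.58 for Ywhaq, -0.012 to 0.25 for Ppp2r2a and -0.017 to 0.22 for Nmt1. The causes were not tested. Array weights called Hdac4 (0.59), Ncor1 (0.58), Avil (-0.81) and Hdac2 (-2.13), 1 of the 7 genes, 1 partner gene and 567 genes in all; they weighted WT 2 at 4.17 and WT 3 at 0.101. DESeq2 called Hdac2 at -2.51 (-2.47 with the block), with 26 genes in all and 59 with the block, and 5 genes were called without both libraries numbered 3; every other setting called 0 genes in all. The replicate block left the log2 fold changes as they were (0.55 for Hdac4, adjusted p 0.674 in limma) and called none of the 7 genes. With the sex term they were 0.50 for Hdac4, -0.50 for Hdac5, -0.34 for Hdac11 and 0.04 for the X-linked Hdac6. A sex term evenly split between the groups would leave them unchanged, so sex as set from these reads was partly confounded with group. Over the 23 alternatives of every kind, the median log2 fold change of all genes moved by up to 0.115. With 3 libraries a group the 95% intervals of the ratio run from 0.377 (lower bound for Hdac5) to 2.06 (upper bound for Hdac4), and differences inside them could not be resolved.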
